A study of Danio rerio with 17 samples.

Results

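Transcripts of 6 genes that encode regulators of stored maternal mRNA were followed in zebrafish (Danio rerio) oocytes from the animal to the vegetal pole, the axis along which the egg is first polarized. The 6 genes were cpeb1b, zar1, zar1l, ybx1, igf2bp3 and pabpc1l, matched by symbol among the 32520 Ensembl genes of the count tables, where the symbol table names cpeb1b (ENSDARG00000008454) as CPEB1. The other 5 matched as zar1 (ENSDARG00000019706), zar1l (ENSDARG00000055973), ybx1 (ENSDARG00000004757), igf2bp3 (ENSDARG00000010266) and pabpc1l (ENSDARG00000002597). All 6 had an entry and all 6 passed the filter on low counts. Frozen oocytes had been cut with a cryostat into 5 segments, of which E is the vegetal end, D, C and B lie between, and A is the animal end. RNA of each segment was sequenced after depletion of ribosomal RNA. The 17 libraries comprised 3 of E, 3 of D, 4 of C, 3 of B and 4 of A, from 4 oocytes numbered 1 to 4 in the labels, which name no strain, female, treatment or oocyte stage. Segment E of oocyte 2, segment D of oocyte 4 and segment B of oocyte 3 were not analysed here.

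A growing oocyte makes most of the mRNA that the early embryo will use and keeps much of it untranslated until maturation or fertilization. CPEB proteins bind short elements near the end of such mRNAs; in Xenopus oocytes they first hold the poly(A) tail short and later, once phosphorylated, promote its lengthening, which switches translation on. Zar1 and Zar1l are oocyte zinc-finger proteins that bind RNA, Ybx1 and Igf2bp3 coat mRNAs in particles that set their translation and stability, and Pabpc1l is the embryonic type of poly(A)-binding protein. In fish and frogs alike, some maternal mRNAs lie at one pole of the oocyte and others are spread through it.

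Reads counted in genes ranged from 4054233 to 23672322 per library, and the 5 libraries of oocyte 1 were the shallowest, with at most 9319365. Oocyte 1 also held at most 0.00239% spike-in RNA, against 0.185% to 0.802% in the other oocytes, so results are also given without it; the labels name no batch. Levels are given as CPM, counts relative to a library size scaled by the trimmed mean of M values (TMM). Each library was made from the same mass of RNA, so a CPM value is a share of the RNA in a segment and not a number of molecules in the oocyte. All 15 oocyte markers, among them zar1, were tested. Not every marker was read in every library: the minimum was 0 CPM for zp2.1, zp2.3, zp3a.1, figla and zar1. The summed level of the 15 was 4643 to 5515 CPM in E and 3547 to 4274 CPM in A. That sum includes dazl, a vegetally localized transcript that ran from 0.044 to 1188 CPM over the libraries; the median log2 fold change of the 15, E over A, was -0.11, with 7 above 0. Of 16 follicle cell entries, 8 were at 0 reads in every library, among them fshr, star, amh and inha. The summed level of the list was 241 to 325 CPM in E and 127 to 397 CPM in A, most of it from cyp11a1. Means were 40.0 CPM for hsd3b2 and 38.6 CPM for cyp17a1, while lhcgr, gsdf and a foxl2 entry averaged 5.62 to 6.49 CPM. Of the 6 follicle cell entries tested, 6 had a trend above 0, towards E. In E over A 4 were above 0, and edgeR called 0 in either test. Of 10 blood cell entries, 7 were at 0, and their sum was at most 38.7 CPM. A lower share of a transcript within the oocyte's own RNA and a larger share of RNA from attached cells cannot be told apart in a segment's library, and the part of such cells in the results was not tested.

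Differences were tested with edgeR's quasi-likelihood test on 12549 genes, and a gene was called at a Benjamini-Hochberg adjusted p under 0.05 over all of them. Segment E against A called 240 genes (1.91%), segment C against A called 34 (0.271%) and segment E against C called 90 (0.717%). A joint test for any difference among the 5 segments called 209 genes (1.67%), and a linear trend along the axis called 303 (2.41%). The comparisons share libraries, E against A and C against A through segment A, so their results are not independent of each other. Without oocyte 1, the counts were 152 for E against A and 50 for E against C. For C against A the count was 61 without oocyte 3, 52 without segment B of oocyte 2, and 53 or 54 without the E library of oocyte 3 or 4; with the oocyte as a block it was 70. Of the genes called in E against A, 53.8% were higher in E, but 67.0% with the authors' factors, whose median log2 fold change over all genes was 0.22. Spike-in scaling could be fitted on oocytes 2 to 4 alone; it gave 89.7% higher and a median of 0.453, against 61.8% and a median of 0 with TMM on the same libraries. For C against A 38.2% were higher in C, but 93.7% with the authors' factors, whose median shift there was 0.477, and 100% of 3 with spike-in scaling, against 42.9% with TMM on oocytes 2 to 4. For E against C 65.6% were higher in E, and 46.9% with the authors' factors, with a median shift of -0.266; spike-in scaling gave 100% of 6, against 76% with TMM on oocytes 2 to 4. For the trend 48.8% were higher towards E, but 66.8% with the authors' factors and 77.8% with spike-in scaling, against 51.5% with TMM on oocytes 2 to 4.

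Transcripts of cpeb1b fell towards the vegetal end, and cpeb1b was the one gene of the 6 that edgeR called in any test. In segment E its level was 170, 142 and 351 CPM in oocytes 1, 3 and 4. In segment A it was 1169, 1091, 914 and 1292 CPM in oocytes 1 to 4. Every E library was below every A library, and the ranges were far apart. The means were 221 ± 114 CPM in E (SD, n = 3) and 1117 ± 158 CPM in A (SD, n = 4), so that E held 19.8% of the level in A. The log2 fold change, E over A, was -2.34 ± 0.29 (SE; 95% interval -2.92 to -1.76), with an edgeR adjusted p of 2.77e-08. Among all tested genes, 0.885% were called lower in E, 1.03% were called higher, and 3.82% had E and A ranges that did not overlap with E lower. The values rest on 1087 to 25007 reads per library.

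The intermediate segments filled in a graded profile. Segment B held 1035, 849 and 917 CPM of cpeb1b in oocytes 1, 2 and 4, and segment C held 686, 619, 425 and 590 CPM in oocytes 1 to 4. Segment D held 261, 298 and 306 CPM in oocytes 1 to 3. Segment A averaged 1117 ± 158 CPM, B averaged 934 ± 94.1, C averaged 580 ± 111, D averaged 288 ± 23.9 and E averaged 221 ± 114 CPM (SD). Over all oocytes, the ranges of A and B overlapped, as did those of D and E, and neither pair of segments was tested. Within an oocyte, B was below A in oocytes 1, 2 and 4, with 1035 and 1169, 849 and 1091, and 917 and 1292 CPM. C lay wholly below B, as for 2.63% of all tested genes, and D wholly below C, as for 2.21%. Likewise E was below D in both oocytes that had both (170 and 261 CPM in oocyte 1, 142 and 306 CPM in oocyte 3). The largest fall in CPM lay between C and D in oocytes 1 and 2. Oocyte 3 had no B library here and oocyte 4 no D library, so their steps span unlike distances.

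In the joint test over the 5 segments, cpeb1b had an edgeR adjusted p of 2.50e-09. The linear trend was a log2 change of -0.63 ± 0.06 per segment step (SE), adjusted p = 6.90e-10; 1.24% of all tested genes were called with a trend down towards E and 1.18% with a trend up. Segment E was also lower than segment C, by a log2 fold change of -1.39 ± 0.28 (edgeR adjusted p = 0.00162), where 0.247% of genes were called lower and 0.47% higher. That call was lost without oocyte 1 (adjusted p = 0.203) and without the E library of oocyte 3 (0.0664). Segment C against A gave -0.95 ± 0.25, edgeR adjusted p = 0.101, which missed the threshold; 0.167% of genes were called lower there and 0.104% higher. With the oocyte as a block the same difference had an edgeR adjusted p of 0.0103, and it also passed without the E library of oocyte 3 (0.0495) or that of oocyte 4 (0.0428).

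**Figure D1:**
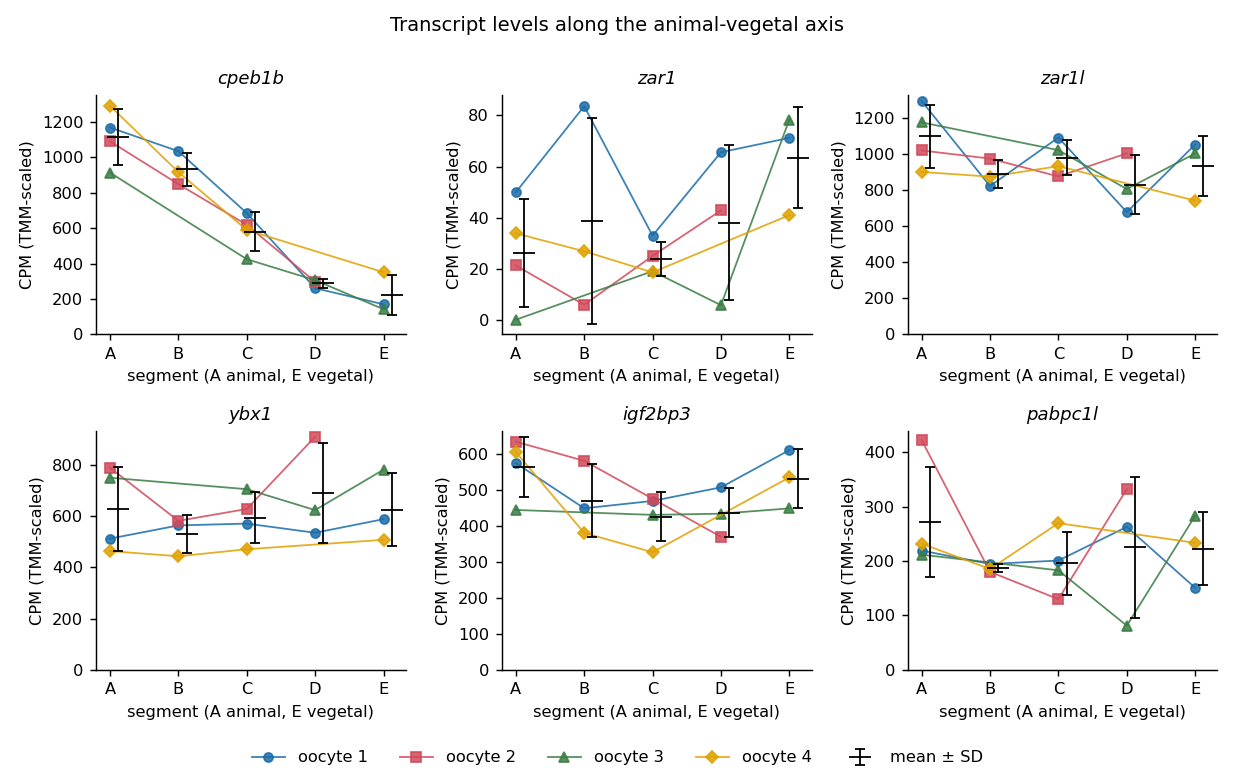
Level of each of the 6 transcripts (y axis, TMM-scaled CPM, starting at or near 0 and scaled separately in each panel) by segment (x axis, A animal to E vegetal). Lines join the libraries of 1 oocyte, and black marks are means ± SD of a segment. In cpeb1b all 4 lines run down, with E at 142 to 351 CPM and A at 914 to 1292 CPM; in the other 5 panels the E and A ranges overlap.

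The fall of cpeb1b was seen within each oocyte. Of the 13 steps from one analysed segment to the next within an oocyte, cpeb1b was lower on the vegetal side in 13. Among the 2668 genes that averaged 100 CPM or more, 6 (0.225%) shared that property and 4 (0.15%) were higher at every step. The 6 were ccdc102a, tacc3, cpeb1b, wnk1, itpkc and prr12. Segment A exceeded segment E 6.88-fold in oocyte 1, 6.43-fold in oocyte 3 and 3.68-fold in oocyte 4. Slopes fitted within an oocyte were -0.75, -0.61, -0.64 and -0.47 log2 CPM per segment in oocytes 1 to 4. Oocyte 4 had the shallowest slope, the highest A value and the highest E value. Without oocyte 1 the log2 fold change of E over A was -2.16, edgeR adjusted p = 1.80e-05.

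Spike-in RNA offers another yardstick, though the labels do not give the amount added and only oocytes 2 to 4 carry enough of it. Per 1000 spike-in reads, cpeb1b had 27.2 reads in segment E and 116 in segment A of oocyte 3, and 184 in E and 704 in A of oocyte 4. In oocyte 2, which had no E library here, A held 132, B held 126, C held 103 and D held 41.9. Of the 9 steps within these oocytes, 8 were lower on the vegetal side; the exception was oocyte 3, with 141 in C and 116 in A. Both oocytes with both ends thus had less cpeb1b in E than in A, but oocytes 3 and 4 lay far apart on this scale. The fit scaled to spike-ins, which leaves out oocyte 1, gave a log2 fold change of -1.59 for E over A with an edgeR adjusted p of 1, against -2.16 and 1.80e-05 with TMM on the same libraries, so the call was lost. With the oocyte as a block as well, a fit added after the data had been seen, the values were -1.93 and an adjusted p of 0.346.

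The zar1l transcript, the relative of zar1, was not called in any of the 5 tests. Its level was 1053, 1003 and 742 CPM in segment E of oocytes 1, 3 and 4, and 1294, 1020, 1176 and 901 CPM in segment A of oocytes 1 to 4. The E and A ranges overlapped, and so did those of each pair of neighbouring segments. Within an oocyte, A exceeded E 1.23-fold in oocyte 1, 1.17-fold in oocyte 3 and 1.21-fold in oocyte 4. The log2 fold change, E over A, was -0.24 ± 0.24 (SE; 95% interval -0.71 to 0.24), edgeR adjusted p = 1. Segments B, C and D held 823 to 975, 876 to 1092 and 678 to 1004 CPM. The highest of the 17 libraries was 1.91 times the lowest, and 8 of 13 steps within oocytes were lower on the vegetal side. A fall to the level seen for cpeb1b lies outside the interval for zar1l.

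Reads of zar1, the zinc-finger gene first known as a maternal-effect gene in the mouse, were scattered between libraries, from 0 to 1641. Segment E held 71.2, 78.4 and 41.0 CPM in oocytes 1, 3 and 4. Segment A held 49.9, 21.2 and 33.8 CPM in oocytes 1, 2 and 4, and in oocyte 3 it had 0 reads, which allows up to 0.175 CPM by counting error alone. The means were 63.5 ± 19.9 CPM in E (SD, n = 3) and 26.2 ± 21.1 CPM in A (SD, n = 4), with overlapping ranges. Segments B, C and D held 5.85 to 83.6, 18.5 to 32.9 and 5.70 to 65.6 CPM. The log2 fold change, E over A, was 1.28 ± 1.15 (SE; 95% interval -1.02 to 3.57), edgeR adjusted p = 0.967. It was 0.68 without oocyte 3, 1.96 with the oocyte as a block and 2.58 with the block and spike-in scaling on oocytes 2 to 4, and passed in none of these. The 95% interval includes both lower and higher levels in E, so the direction of a zar1 difference was not resolved at this spread between libraries.

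The ybx1 transcript encodes a cold-shock domain protein that binds many maternal mRNAs and, in zebrafish, represses translation of a maternal Nodal mRNA. It was read at 589, 782 and 508 CPM in segment E of oocytes 1, 3 and 4, and at 513, 790, 751 and 464 CPM in segment A of oocytes 1 to 4. All 3 E values lay inside the range of the A values, and the means were 626 ± 141 CPM in E (SD, n = 3) and 629 ± 165 CPM in A (SD, n = 4). The log2 fold change, E over A, was -0.0068 ± 0.26 (SE; 95% interval -0.54 to 0.52), edgeR adjusted p = 1. Within an oocyte, E was above A by 0.20, 0.06 and 0.13 log2 CPM in oocytes 1, 3 and 4. With the oocyte as a block, E over A was 0.099 and was not called. Oocyte 4 held 444 to 508 CPM over its 4 libraries and oocyte 1 held 513 to 589 CPM over 5, against 582 to 911 CPM in oocyte 2 and 624 to 782 CPM in oocyte 3. Every library of oocyte 4 was below every other library, as for 0.862% of the 2668 genes of at least 100 CPM.

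For igf2bp3, a KH-domain protein whose zebrafish form stabilizes maternal mRNA and whose Xenopus relative binds a vegetally localized mRNA, no difference between the ends was called. Segment E held 612, 449 and 536 CPM in oocytes 1, 3 and 4. Segment A held 576, 635, 445 and 606 CPM in oocytes 1 to 4. The ranges overlapped, and the log2 fold change, E over A, was -0.088 ± 0.26 (SE; 95% interval -0.62 to 0.44), edgeR adjusted p = 1. The middle of the axis had the lowest mean, 426 ± 68.9 CPM in C (SD, n = 4) with single values from 327 to 476 CPM. Segment C over A gave a log2 fold change of -0.41 ± 0.24 (edgeR adjusted p = 0.784), which was not called. That fit does not pair libraries by oocyte. Segment C held 470, 476, 431 and 327 CPM in oocytes 1 to 4, below segment A in each. The share of all genes with that property was not counted. With the oocyte as a block, the joint test did not call igf2bp3 either (edgeR adjusted p = 0.999995). Segments B and D held 381 to 582 and 370 to 508 CPM.

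The pabpc1l transcript was spread widely over the libraries and was not called in any of the 5 tests. Segment E held 151, 283 and 234 CPM in oocytes 1, 3 and 4, and segment A held 219, 423, 212 and 232 CPM in oocytes 1 to 4. The A library of oocyte 2 stood well above the other 3 A libraries. The log2 fold change, E over A, was -0.29 ± 0.37 (SE; 95% interval -1.03 to 0.46), edgeR adjusted p = 1, and it was 0.027 without that library. Segment B, at 180 to 195 CPM, lay wholly below segment A, as for 1.94% of all tested genes, but the joint test did not call pabpc1l (edgeR adjusted p = 0.999999). Segment C held 130 to 270 CPM, and segment D held the extremes of 81.2 CPM in oocyte 3 and 332 CPM in oocyte 2.

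**Figure D2:**
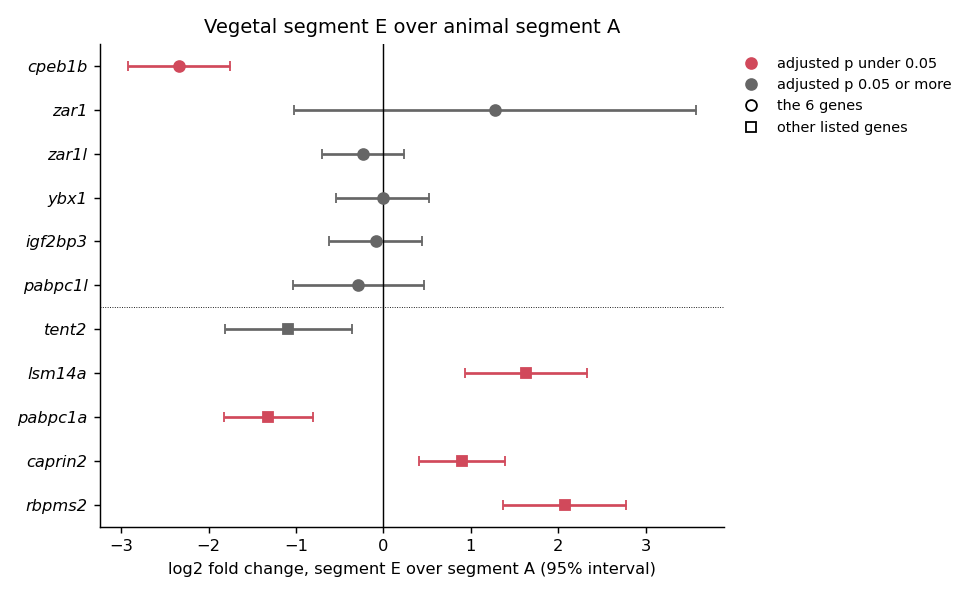
Log2 fold change of segment E over segment A (x axis) with its 95% interval for the 6 genes (circles, top) and the 5 other listed genes described below (squares). Red marks have an edgeR adjusted p under 0.05. The interval of cpeb1b, -2.92 to -1.76, lies apart from those of zar1, zar1l, ybx1, igf2bp3 and pabpc1l. That of zar1, -1.02 to 3.57, is the widest of the 6.

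Because reads of 2 genes in 1 library share its scaling and depth, the ratio of cpeb1b to each other gene was also compared between the ends. The log2 ratio of cpeb1b reads to zar1l reads averaged -2.18 ± 0.95 in segment E (SD, n = 3) and 0.03 ± 0.38 in segment A (SD, n = 4). Against ybx1 the ratio averaged -1.59 ± 0.98 in E and 0.85 ± 0.57 in A. Against igf2bp3 it averaged -1.37 ± 0.67 in E and 0.98 ± 0.14 in A, and against pabpc1l -0.08 ± 0.82 in E and 2.09 ± 0.51 in A. The difference in the log2 ratio, E minus A, was -2.20 against zar1l, -2.45 against ybx1, -2.35 against igf2bp3 and -2.17 against pabpc1l. Against zar1 the difference was -5.37, a size that rests on the A library of oocyte 3 with its 0 zar1 reads; without that library it was -3.42. In each of the 5 ratios every E library lay below every A library, as did the level of cpeb1b by itself. The share of all genes that would give such a ratio with cpeb1b was not counted. The 5 ratios share the cpeb1b reads of the same libraries, so they are not independent of each other or of the levels above. The 2-sided exact permutation test gave p = 0.0571 for each, also after adjustment over the 5 ratios, which is the smallest value that 3 libraries against 4 allow, so a threshold of 0.05 could not be reached.

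**Figure D3:**
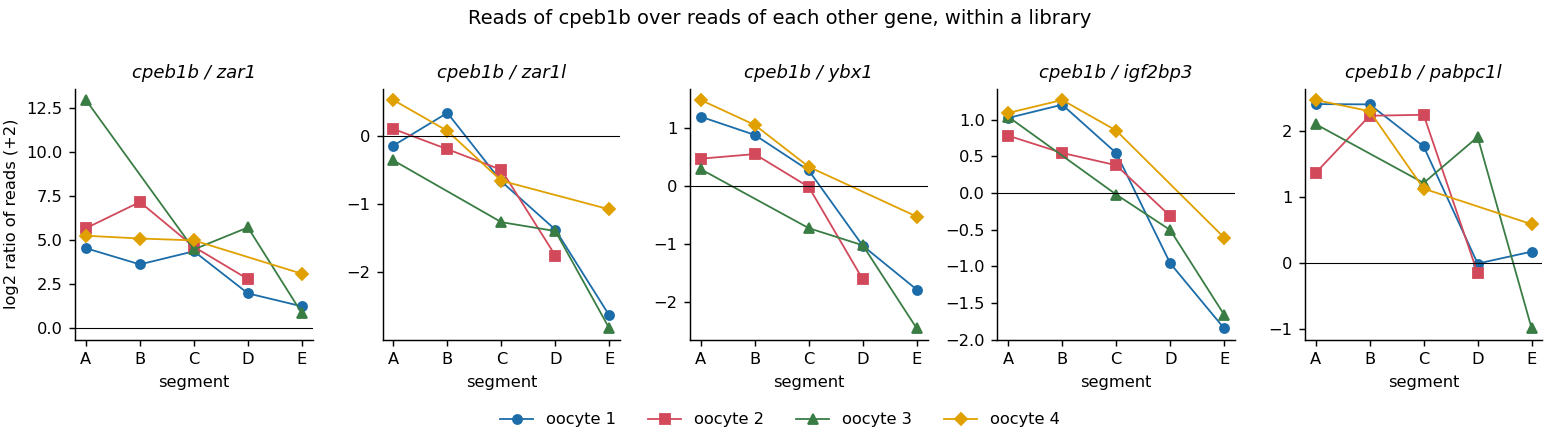
Log2 ratio of cpeb1b reads to reads of each other gene within the same library (y axis, 2 reads added to both, scaled separately in each panel) by segment (x axis, A animal to E vegetal). Lines join the libraries of 1 oocyte. All E points lie below all A points in each panel; the point near 12.9 at A in the zar1 panel is the library with 0 zar1 reads.

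The 6 profiles were little alike across the 17 libraries. Pearson correlations of log2 CPM between pairs of the 6 genes ran from -0.33, between cpeb1b and ybx1, to 0.33, between zar1l and ybx1; the libraries share oocytes and segments, so these values describe the set and were not tested. Among 2634 tested genes that had a symbol and averaged 100 CPM or more, those most like cpeb1b were fbxo5 (r = 0.958), ccdc102a (0.947) and itpkc (0.938). The fbxo5 transcript, which encodes an inhibitor of the anaphase-promoting complex, averaged 22.9 CPM in E and 574 CPM in A; ccdc102a averaged 9.84 CPM in E and 579 CPM in A. Transcripts of itpkc, an inositol trisphosphate kinase, averaged 16.2 CPM in E and 279 CPM in A. In all 3 the E mean was a smaller part of the A mean than in cpeb1b.

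For the other 5 genes the closest profiles were less close. Each value below is the top of a search over 2634 genes. How high such a search reaches for unrelated genes was not tested. The median correlation over the candidates ran from -0.012, for zar1, to 0.057, for ybx1. The highest correlations were 0.731 for zar1 with myh9, a non-muscle myosin heavy chain gene, followed by unc13b (0.718) and ppm1g (0.714). For zar1l they were 0.740 with zgc:173856, 0.693 with the phosphatase gene cdc14b and 0.677 with gng5, a G protein subunit gene. For ybx1 they were 0.797 with si:dkey-261m9.5, 0.776 with si:ch73-36p18.2 and 0.763 with fam168b. For igf2bp3 they were 0.762 with ss18, a chromatin remodelling subunit gene, 0.740 with rnf145b and 0.694 with kansl1a. For pabpc1l they were 0.720 with prp4k, 0.664 with ptk2ab and 0.660 with mos, a kinase gene of oocyte maturation. Transcripts of mos averaged 133 CPM in E and 208 CPM in A, with an edgeR adjusted p of 0.767.

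The wider machinery was examined in 5 lists holding 82 entries, of which 75 were tested. In E against A, 3 of the 75 were called higher and 2 lower, where 1.03% and 0.885% of all tested genes were, and the median log2 fold change was -0.13, against a median of 0.00079 over all 12549 genes. Each list held 1 or 2 genes that were called in E against A, the joint test or the trend. No entry of the 5 lists was called in C against A by edgeR at an adjusted p under 0.05, while 5 had an unadjusted p under 0.05 and DESeq2 called 2, cpeb1b and pabpc1a, both lower in C. These are 6.67% and 2.67% of the 75, against 8.10% and 3.46% of all tested genes, so in C against A neither share is above the background. In the other results the DESeq2 share of the 75 was above that of all tested genes. It was 8% against 5.47% in E against A and 5.33% against 3.55% in E against C. The joint test had 8% against 2.62%, and the trend 9.33% against 3.93%. For an unadjusted edgeR p under 0.05, the shares were 10.7% against 8.05% in E against A and 8% against 6.53% in E against C. They were 10.7% against 7.08% in the joint test and 10.7% against 7.499% in the trend. DESeq2 called cpeb1b, lsm14a, rbpms2 and caprin2 in each of these results, so the shares are not independent. The background was not matched to the lists by level, so these shares do not show that the lists stand out. The lists were chosen with earlier results known, and these shares were not tested.

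Of the cytoplasmic polyadenylation genes, 15 of 17 entries were tested; 0 were called higher and 1 lower in E, and the list's median log2 fold change was -0.16. The 1 was cpeb1b. The other CPEB genes were not called: cpeb4 gave a log2 fold change, E over A, of 0.10, cpeb4b gave -0.22 and cpeb3 gave -0.13, each with an edgeR adjusted p of 1, while cpeb1a and cpeb2 had too few reads to be tested. Transcripts of tent2 (ENSDARG00000099679), the poly(A) polymerase that acts with CPEB in Xenopus oocytes, were read at 113, 158 and 139 CPM in segment E of oocytes 1, 3 and 4. In segment A they were read at 210, 413, 319 and 220 CPM in oocytes 1 to 4. The ranges did not overlap, as for 3.82% of all tested genes with E lower. The tent2 trend was a log2 change of -0.36 ± 0.08 per segment step (edgeR adjusted p = 0.00627), and the joint test gave 0.0199, but E over A, at -1.09 ± 0.36, missed the threshold (0.173). The joint call was lost without oocyte 1 (adjusted p = 0.543), without oocyte 2 (0.0896), and without segment D of oocyte 1 (0.138), segment A of oocyte 2 (0.0704) or segment A of oocyte 3 (0.0523). The trend call was lost without oocyte 2 (0.0885) and with the authors' factors (0.132).

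Of the genes for repression at the cap, 18 of 19 entries were tested, with 1 called higher, 0 lower and a median log2 fold change of -0.07. The 1 was lsm14a (ENSDARG00000100553), which encodes a P-body protein that represses translation in Xenopus oocytes. It was read at 449, 346 and 509 CPM in segment E of oocytes 1, 3 and 4, against 151, 129, 102 and 180 CPM in segment A of oocytes 1 to 4. The ranges did not overlap, as for 4.61% of all tested genes with E higher. Segment E over A gave a log2 fold change of 1.63 ± 0.35 (SE), edgeR adjusted p = 0.00201, and the trend was 0.39 per segment step (0.00032). Its near relative lsm14aa gave -0.26 and lsm14b gave -0.00064, both with an adjusted p of 1. The helicase gene ddx6 (-0.02), patl1 (0.14) and eif4enif1 (0.11), whose products act together in repressive particles, were not called either.

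Among the poly(A)-binding genes, 7 of 8 entries were tested, with 0 called higher, 1 lower and a median log2 fold change of -0.29. The 1 was pabpc1a (ENSDARG00000017219), the general cytoplasmic poly(A)-binding protein. It was read at 581, 695 and 821 CPM in segment E of oocytes 1, 3 and 4. In segment A it was read at 1763, 2127, 1923 and 1142 CPM in oocytes 1 to 4. The ranges did not overlap, as for 3.82% of all tested genes with E lower. In pabpc1a, E over A gave a log2 fold change of -1.31 ± 0.25 (SE), edgeR adjusted p = 0.000428, and the trend was -0.35 per segment step (1.21e-05). Within oocytes A exceeded E 3.04-fold in oocyte 1 and 2.77-fold in oocyte 3, but 1.39-fold in oocyte 4. The difference between pabpc1a and its relative pabpc1l was not tested.

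The mRNP coat list had 17 of 18 entries tested, with 1 called higher, 0 lower and a median log2 fold change of -0.17. The 1 was caprin2 (ENSDARG00000020749), an RNA-binding protein gene, at 1211, 1300 and 1512 CPM in segment E of oocytes 1, 3 and 4, and 698, 597, 734 and 843 CPM in segment A of oocytes 1 to 4. On the log2 scale E over A was 0.90 ± 0.25 (SE), edgeR adjusted p = 0.0323, with a trend of 0.22 per segment step (0.00951). The call of E over A was lost without each oocyte in turn (adjusted p 0.0923 to 0.152) and without segment A of oocyte 1 (0.0845), of oocyte 2 (0.113) or of oocyte 3 (0.0839), or segment E of oocyte 4 (0.157). The trend call was lost without oocyte 1 (0.088) or oocyte 3 (0.066). The joint test gave an adjusted p of 0.0994, which missed the threshold, but it passed with the oocyte as a block (0.0113), the authors' factors (0.00371), no filter (0.00742) and DESeq2 (0.0015). It also passed without oocyte 2 (0.0306), and without segment B (0.0337) or D (0.0241) of oocyte 2. Both entries named caprin1, which encodes the related stress granule protein, gave -0.66 and -0.27 and were not called.

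Of the repressors that bind specific sequences, 18 of 20 entries were tested, with 1 called higher, 0 lower and a median log2 fold change of 0.13. The 1 was an entry named rbpms2 (ENSDARG00000045930), whose protein binds the germ plasm organizer Bucky ball. It was read at 507, 494 and 566 CPM in segment E of oocytes 1, 3 and 4. In segment A it was read at 138, 160, 64.9 and 133 CPM in oocytes 1 to 4. The ranges did not overlap, as for 4.61% of all tested genes with E higher. For this entry E over A gave a log2 fold change of 2.07 ± 0.35 (SE), edgeR adjusted p = 3.87e-05, and the trend was 0.51 per segment step (6.14e-06). A second entry of that name gave 0.39 and was not called (0.726). The Smaug relative samd4a (0.41) was not called.

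**Figure D4:**
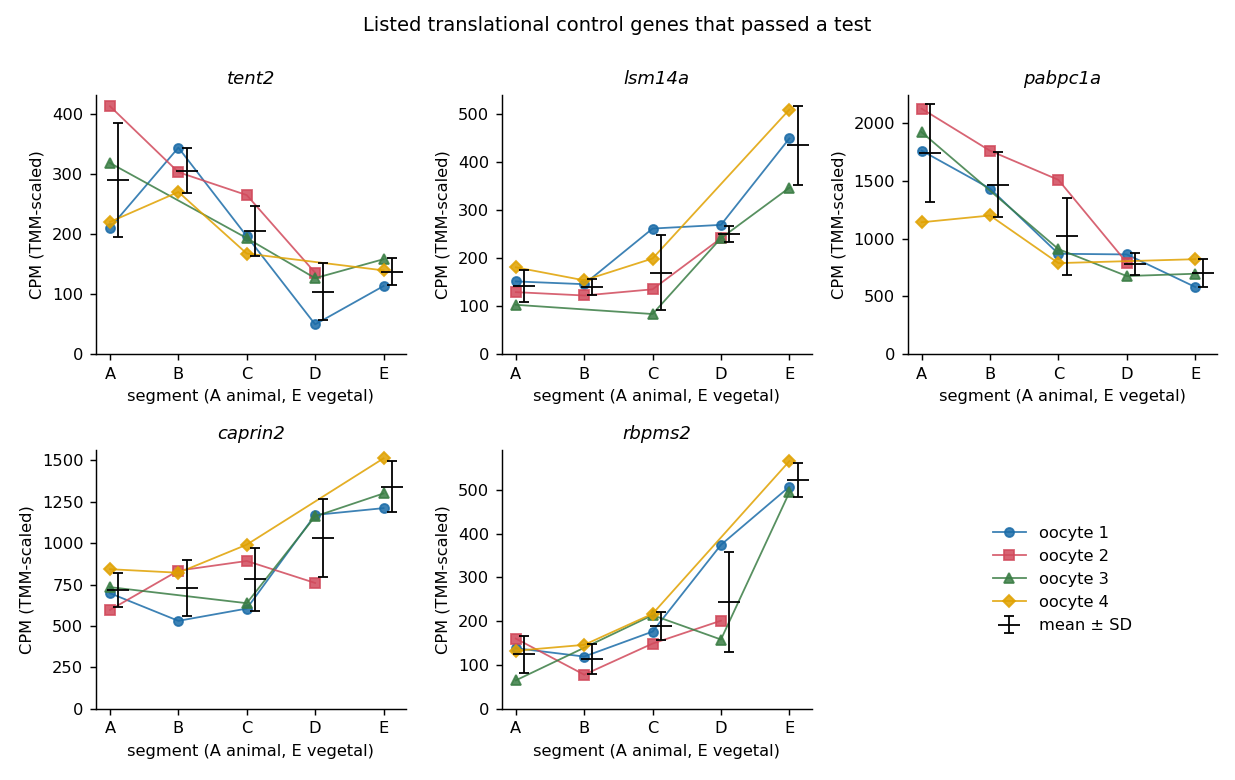
Level of the 5 other listed genes that passed a test (y axis, TMM-scaled CPM from 0, scaled separately in each panel) by segment (x axis, A animal to E vegetal). Lines join the libraries of 1 oocyte, and black marks are means ± SD. E lies below A for tent2 and pabpc1a and above A for lsm14a, caprin2 and rbpms2.

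**Figure D5:**
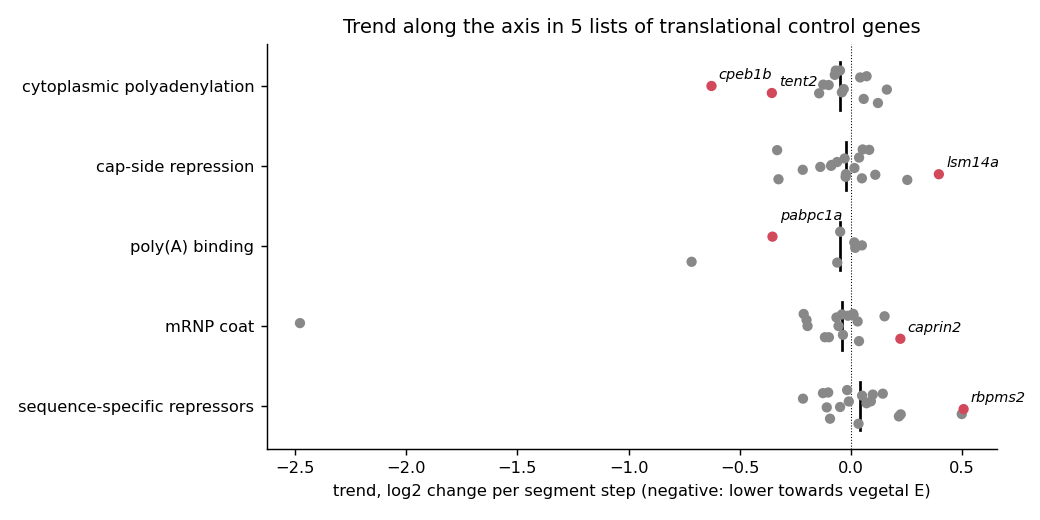
Trend of each tested gene of the 5 lists (x axis, log2 change per segment step, where negative means lower towards the vegetal end). Red dots have an edgeR adjusted p under 0.05 and are named, black bars are list medians, and the vertical scatter has no meaning. The grey dots at -2.48 and -0.72 are igf2bp2 and paip2b, which averaged 5.04 and 5.54 CPM and were not called by edgeR; DESeq2 called the trend of igf2bp2.

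Over the trend test, 3 of the 75 listed genes were called higher and 3 lower towards E, where 1.18% and 1.24% of all tested genes were. The higher ones were lsm14a, caprin2 and rbpms2, and the lower ones cpeb1b, tent2 and pabpc1a. With spike-in scaling on oocytes 2 to 4, none of these 6 trends passed (edgeR adjusted p 0.188 to 0.99994), each with the same direction, and 702 of all genes had an unadjusted p under 0.05. With the oocyte as a block as well, lsm14a (adjusted p = 0.0317) and rbpms2 (0.0126) passed. The E over A calls of the other listed genes were lost as well with spike-in scaling: the log2 fold change was 1.98 for lsm14a, -0.41 for pabpc1a and 1.32 for caprin2 (edgeR adjusted p = 1 each) and 2.55 for rbpms2 (0.775). On the same libraries TMM gave 1.64 for lsm14a, -1.19 for pabpc1a and 2.15 for rbpms2, all called. For caprin2 TMM gave 0.96 there, a call already lost (edgeR adjusted p = 0.128), as was its trend (0.088). With spike-in scaling and the block, pabpc1a gave -0.62 and rbpms2 passed (2.35, adjusted p = 0.048).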

How the data were processed

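RNA of cryostat segments from 4 oocytes was isolated on columns, depleted of ribosomal RNA and made into libraries with the Lexogen SENSE kit, per the labels' protocols. The authors deposited raw counts per Ensembl gene for each of 17 libraries; Trimmomatic, STAR 2.5.3a, HTSeq, DESeq2 and the build GRCz11 are named in the submitters' processing notes. They also deposited a table of normalized signal, the counts divided by 1 factor per library; 100% of its values gave whole reads (within 0.01) equal to the counts. Per the file headers and entries, 92 spike-ins and 5 summary entries stood beside 32520 genes. Reads outside genes were 4.60% to 6.10% and reads with more than 1 alignment 6.88% to 14.2% of all entries. Reads of this last kind went to no gene, so levels of genes with near-identical copies are uncertain. This may hold for the entries of the pabpc1, caprin1 and rbpms2 families, whose likeness in sequence was not tested. Whether counting used strand is not given in the sources used here. Symbols covered 29201 identifiers (89.8%).

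Genes were filtered with edgeR 4.0.16 (filterByExpr by segment, minimum count 10; 12549 genes with 99.8% of counts), scaled by TMM and tested 2-sided with its quasi-likelihood F-test, with 1 coefficient per segment or a linear trend over all 17 libraries. Standard errors are the absolute log2 fold change over the square root of F. Ratios within a library used 2 added reads and exact permutation tests. Alternatives were RLE factors, library sizes alone, the authors' factors, spike-in scaling, no filter, DESeq2 1.42.0, an oocyte block, and leaving out each oocyte and library; spike-in scaling with the block was added after seeing the data. The scripts were tested on simulated data. Counting limits cover counting error only; PCR copies were not told apart.

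The oocyte number in the labels pairs the libraries, since those with 1 number were cut from 1 oocyte. The deviations of same-oocyte libraries from segment means correlated with a median of 0.071 (28 pairs, 11 over 0.1), against -0.036 between oocytes. Oocytes are the replicates, but whether they came from separate females is not given.

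The 6 genes, the 5 pathway lists, the markers and the tests were chosen with earlier results of these data known. Named genes were the 6, the list genes called in E against A, the joint test or the trend, and the 3 genes of at least 100 CPM most correlated with each of the 6; list genes not called and named beside them were chosen after their values were seen. A symbol that had no exact match was matched without its last letter. No genome of the files' build was used here, so neither sequences, positions nor levels per length are given, and levels are not compared between genes.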

Additional observations from a re-analysis of the deposited data

Results flagged for a closer look

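Of 22 groups of 4 libraries that were examined (segments A and C of the 11 genes described by library), 2 held a value far from the other 3; chance alone flags about 1 in 20, or 1.1 of 22. The first was pabpc1l in segment A, where oocyte 2 had 423 CPM and the other 3 oocytes had 212 to 232 CPM. The second was pabpc1a in segment C, where oocyte 2 had 1510 CPM and the other 3 had 788 to 909 CPM. Both values come from oocyte 2. Their causes were not tested.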

How the results depend on the processing

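Limits: each segment had 3 or 4 libraries, 3 oocytes had both ends, oocyte 1 was the shallowest and lacked usable spike-ins, and levels are shares of a segment's RNA, so their size depends on the scaling. For cpeb1b, E against A, the joint test and the trend kept their calls in 27 of 29 alternatives each; the exceptions used spike-in scaling on oocytes 2 to 4.

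Spike-in scaling also left out oocyte 1, without which TMM called 152 genes in E against A, 28 in C against A, 50 in E against C, 151 in the joint test and 202 in the trend. With it, 29 genes were called in E against A, 3 in C against A, 6 in E against C, 34 in the joint test and 63 in the trend. There cpeb1b gave -1.59 for E over A, -0.62 for E over C (a call already lost without oocyte 1), a joint adjusted p of 0.99998 and a trend of -0.47 (adjusted p = 0.494). For uncalled genes, E over A turned to 0.19 for zar1l, 0.49 for ybx1, 0.25 for igf2bp3 and 0.37 for pabpc1l, and the trend to 0.017 for zar1l, 0.010 for igf2bp3 and 0.045 for pabpc1l.

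With spike-in scaling and the replicate block (added after seeing the data), 90, 14, 20, 77 and 123 genes were called in E against A, C against A, E against C, the joint test and the trend; cpeb1b gave -1.93, -1.42 for E over C, 0.999998 and -0.46 (adjusted p = 0.0551). E over A was then 0.023 for zar1l, 0.34 for ybx1, 0.097 for igf2bp3 and 0.36 for pabpc1l, and the trend 0.020, 0.010 and 0.060 for zar1l, igf2bp3 and pabpc1l.

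With the authors' factors, 158 genes were called in C against A and 462 in the joint test; E over A turned to 0.21 for ybx1 and 0.14 for igf2bp3, and the trend to 0.012 for zar1l, 0.036 for igf2bp3 and 0.034 for pabpc1l. With no filter, 63 genes were called in C against A and 1096 in the trend, cpeb1b passed in C against A (-0.94, adjusted p = 0.0285), and ybx1 gave 0.036. DESeq2 called 687 genes in E against A, 434 in C against A, 446 in E against C, 329 in the joint test and 493 in the trend. It called cpeb1b in C against A (-0.94, adjusted p = 0.00359) and tent2 in E against A (-1.08, 0.0214). DESeq2 also called pabpc1a in C against A and caprin2 in E against C, where edgeR gave adjusted p values of 0.219 and 0.234. All 3 of these settings also called caprin2 in the joint test.

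The replicate block, which pairs libraries by oocyte, called 70 genes in C against A. It called cpeb1b there (-0.94, adjusted p = 0.0103) and caprin2 in the joint test, and turned ybx1 to 0.099 for E over A. Among the genes named by library it changed no other call in E against A, the joint test or the trend. Calls in C against A and E against C were compared for cpeb1b alone. The paired differences of the 5 ratios gave p = 0.25 each by the exact permutation test, the smallest that 3 oocytes allow.

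Leaving out 1 oocyte or library gave 152 to 258 genes in E against A, 23 to 61 in C against A, 50 to 101 in E against C, 151 to 248 in the joint test and 202 to 360 in the trend. For cpeb1b it gave -2.82 to -2.07 for E over A, -1.04 to -0.82 for C over A, -1.89 to -1.13 for E over C and -0.70 to -0.58 for the trend. E over A ran from -0.17 to 0.14 for ybx1, from -0.19 to 0.051 for igf2bp3 and from -0.60 to 0.027 for pabpc1l; the trend ran from -0.073 to 0.0054 for igf2bp3 and from -0.084 to 0.031 for pabpc1l. Spike-in results, and the spread of zar1 between libraries, from 0 to 1641 reads, limit what these data can show. The causes of the changes were not tested.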
